A study of Mus musculus with 30 samples.

Results

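The Hox genes encode homeodomain transcription factors, and the RNA of these genes was described in 2 skeletal muscles, the heart and the liver of mice. Members were all genes whose symbol is Hoxa, Hoxb, Hoxc or Hoxd followed by a number. This rule takes 36 of the 36103 genes with deposited counts, and the *Hoxb13*, *Hoxc12* and *Hoxd12* genes were not analysed here. The rule uses the symbol alone and no measured value. In GRCm38/mm10, cluster A holds 11 members on the minus strand of chromosome 6, cluster B holds 9 on chromosome 11 (96271457 to 96368256, plus strand), cluster C holds 8 on chromosome 15 (102921103 to 103036852, plus strand) and cluster D holds 8 on chromosome 2 (74668310 to 74765142, plus strand).

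In the embryo, Hox genes give cells of the trunk and limbs their position along the body. The number in a Hox symbol is the paralogue group. It follows the order of the genes along the chromosome, and genes of low number are used from the hindbrain and neck onward while genes of high number are used toward the tail and, in the limb, toward the tip. Adult connective tissue, muscle and other cells keep part of this pattern. The cells of the diaphragm come largely from the neck region, the hindlimb grows out at the lumbar and sacral level, and the heart and liver draw on more anterior sources, with vessels and nerves entering every organ.

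Libraries were made from a calf muscle (gastrocnemius), the breathing muscle of the trunk (diaphragm), heart and liver. The mice were males of 5 weeks on a pure 129Pas background, either wild type (WT) or *Mtm1*-/y from the same litters. *Mtm1* encodes myotubularin, a phosphoinositide phosphatase, and its loss in all tissues is used as a model of X-linked myotubular myopathy. The gastrocnemius and the heart each had 4 WT and 4 *Mtm1*-/y libraries, the diaphragm had 4 and 3, and the liver had 3 and 4. Libraries held 24873817 to 44289343 counts, and *Mtm1* itself stood at 20.8 to 22.3 CPM, counts scaled to a common library size, in WT and at 4.31 to 5.75 CPM in *Mtm1*-/y gastrocnemius. RNA came from whole tissue, so fewer cells of a type and less RNA per cell cannot be told apart.

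*Mtm1*-/y gastrocnemius library 3 stood apart from the other 29 libraries. Transcripts of 8 hair follicle genes summed to 1804 CPM there and to at most 2.52 CPM elsewhere. *Hoxc13*, a Hox gene known for its role in hair, had 223 counts in it, 2 counts in *Mtm1*-/y gastrocnemius library 2 and 0 counts in the remaining 28. *Hoxc13* is given as a single gene only by this value. It remains in the sums, the position index and the shares of *Mtm1*-/y gastrocnemius, which are also given without this library.

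The stretch of 250 bases before the start of a gene holds much of its core promoter. Windows of the GRCm38.p6 assembly, with starts from RefSeq, were found for 21 of the 36 members. The 5 windows printed here belong to a pair of members that led in the trunk muscle or the organs (*Hoxa5*, *Hoxb4*), a pair almost confined to the limb muscle (*Hoxa9*, *Hoxa10*) and a member that reached 10 counts in every WT library of both muscles and the heart (*Hoxd8*), as *Hoxb3* and *Hoxb4* also did. *Hoxa5* lies at chr6:52204588-52204837 on the minus strand, *Hoxb4* at chr11:96318017-96318266 on the plus strand, *Hoxa9* at chr6:52227371-52227620 and *Hoxa10* at chr6:52234940-52235189 on the minus strand, and *Hoxd8* at chr2:74704365-74704614 on the plus strand. Where RefSeq gives several starts of a gene, the window of the last start along the strand was printed. The *Hoxa9* and *Hoxa10* windows therefore lie inside the annotated genes, which span 52223100 to 52231089 and 52231197 to 52240854. Capitals mark matches on either strand. The motifs searched were the TATA box with the letters TATAAA, the E-box with the letters CANNTG, the site of nuclear receptors with the letters AGGTCA, and the site shared by Pbx and Hox proteins with the letters TGATTNAT.
Hoxa5: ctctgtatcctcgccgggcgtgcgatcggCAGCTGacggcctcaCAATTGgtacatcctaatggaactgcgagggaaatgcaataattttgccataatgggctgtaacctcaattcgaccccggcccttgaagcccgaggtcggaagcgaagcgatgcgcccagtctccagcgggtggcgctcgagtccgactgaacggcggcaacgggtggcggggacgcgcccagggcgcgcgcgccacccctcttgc
Hoxb4: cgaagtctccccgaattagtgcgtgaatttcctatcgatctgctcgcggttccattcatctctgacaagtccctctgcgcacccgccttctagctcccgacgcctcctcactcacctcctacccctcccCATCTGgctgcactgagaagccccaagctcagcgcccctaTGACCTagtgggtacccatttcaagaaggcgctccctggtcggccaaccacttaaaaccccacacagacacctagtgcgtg
Hoxa9: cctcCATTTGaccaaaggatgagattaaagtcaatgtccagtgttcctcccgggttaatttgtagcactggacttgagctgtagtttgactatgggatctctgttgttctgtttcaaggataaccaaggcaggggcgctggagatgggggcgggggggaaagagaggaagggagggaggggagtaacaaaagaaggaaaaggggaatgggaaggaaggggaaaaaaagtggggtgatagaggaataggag
Hoxa10: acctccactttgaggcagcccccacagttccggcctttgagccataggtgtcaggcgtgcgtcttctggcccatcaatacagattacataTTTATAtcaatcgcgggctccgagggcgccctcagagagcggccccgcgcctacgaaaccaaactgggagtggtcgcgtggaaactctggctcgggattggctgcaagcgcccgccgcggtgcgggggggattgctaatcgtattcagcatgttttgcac
Hoxd8: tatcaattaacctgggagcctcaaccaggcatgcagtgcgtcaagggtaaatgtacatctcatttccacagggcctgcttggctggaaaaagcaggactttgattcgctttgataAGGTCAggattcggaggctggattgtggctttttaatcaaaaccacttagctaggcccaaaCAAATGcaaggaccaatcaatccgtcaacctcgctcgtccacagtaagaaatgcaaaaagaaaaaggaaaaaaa
The windows differed in base composition. The *Hoxa5* window had 63.6% G and C and 28 CpG pairs, and the *Hoxa10* window had 59.2% and 20. The *Hoxb4* window had 58.0% and 14 CpG pairs. The *Hoxa9* window, with 49.6% and 3 CpG pairs, and the *Hoxd8* window, with 44.4% and 6, were below the median G and C content of all 32851 windows, which was 52.4% with a median of 6 CpG pairs. An E-box was present in 66.2% of all windows and in 16 of the 23 Hox windows. The nuclear receptor motif was present in 14% of all windows and in 6 Hox windows, *Hoxb4* and *Hoxd8* among them. A TATA box was present in 12.4% of all windows and in 4 Hox windows, and the match in *Hoxa10* began 160 bases before the RefSeq start used here. The Pbx and Hox site was found in 2.82% of all windows and in 2 Hox windows, none of them printed.

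The tissues differed first in how much Hox RNA they held. Summed over all members, the level was 215 ± 13.2 CPM (SD, n = 4) in WT gastrocnemius, 71.5 ± 4.62 CPM (SD, n = 4) in WT diaphragm, 5.32 ± 1.33 CPM (SD, n = 4) in WT heart and 4.81 ± 0.740 CPM (SD, n = 3) in WT liver. The heart and the liver did not differ beyond their spread. At least 10 counts in every library were reached by 25 members in WT gastrocnemius, 19 in WT diaphragm, 3 in WT heart and 3 in WT liver. No count in any library was found for 4 members in WT gastrocnemius, 8 in WT diaphragm, 14 in WT heart and 16 in WT liver. These zeros allow at most 3 counts over the libraries of a group, an allowance for counting error only.

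**Figure D1:**
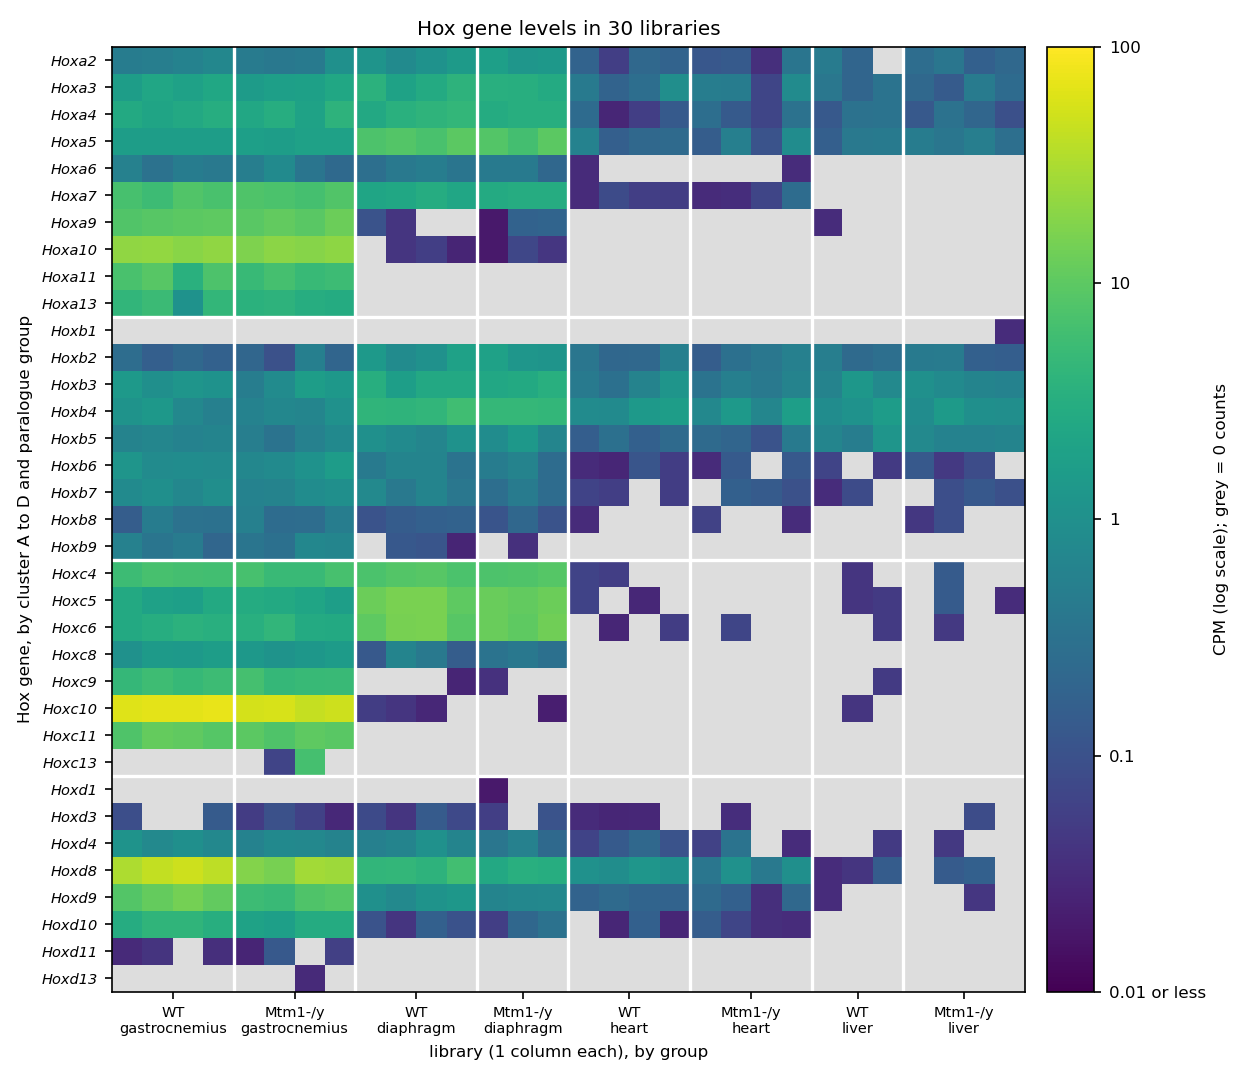
Level of Hox genes (rows, ordered by cluster and paralogue number) in each of the 30 libraries (columns, grouped by tissue and genotype), in CPM on a logarithmic colour scale, with grey where there was no count. The gastrocnemius columns are filled up to paralogue group 13 of cluster A, the diaphragm columns thin out from paralogue group 9, and the heart and liver columns are grey or dark outside the first rows of clusters A and B and *Hoxd8*.

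The tissues differed next in which members made up this RNA. A position index was computed per library as the mean paralogue number, each member weighted by its reads per kilobase of exon. It was 8.99 ± 0.08 (SD, n = 4) in WT gastrocnemius, 5.08 ± 0.07 (SD, n = 4) in WT diaphragm, 5.04 ± 0.41 (SD, n = 4) in WT heart and 3.89 ± 0.30 (SD, n = 3) in WT liver. The gastrocnemius lay above every other tissue in every library, while the diaphragm and the heart lay within each other's spread. Members of paralogue groups 9 to 13 made up 68.8 ± 1.99% (SD, n = 4) of Hox reads per kilobase in WT gastrocnemius and 2.15 ± 0.374% (SD, n = 4) in WT diaphragm. The same share was 6.78 ± 2.76% (SD, n = 4) in WT heart and 1.19 ± 0.218% (SD, n = 3) in WT liver. Groups 4 to 8 held 89.1 ± 2.59% (SD, n = 4) in WT diaphragm, and groups 1 to 3 held 33.2 ± 12.3% (SD, n = 3) in WT liver.

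**Figure D2:**
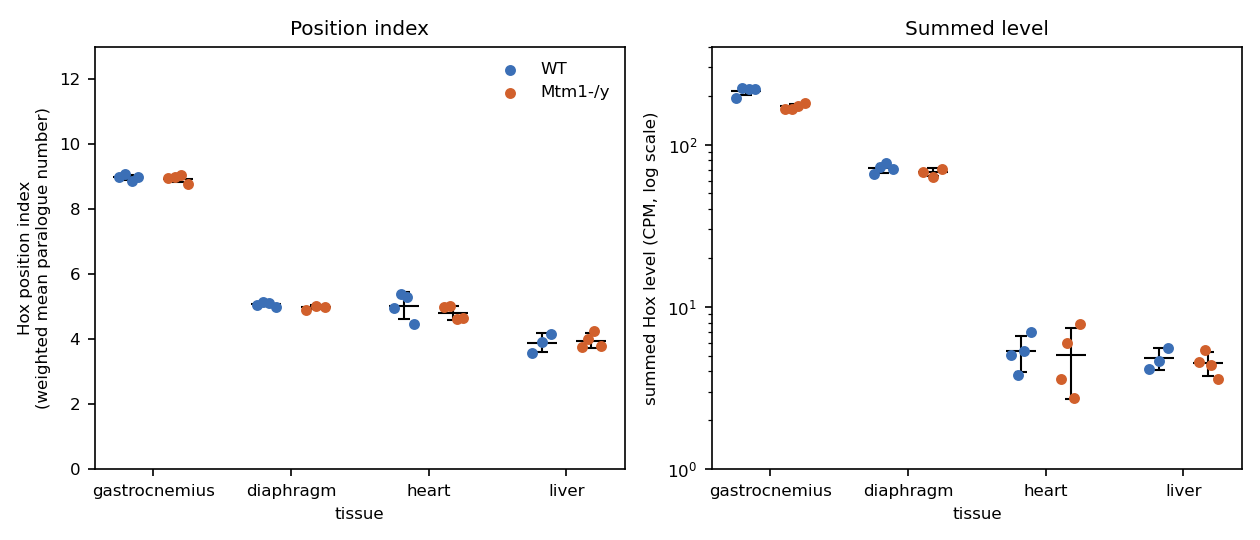
Position index (left, mean paralogue number weighted by reads per kilobase) and summed Hox level (right, CPM on a log axis), 1 point per library, with the mean and SD of each tissue and genotype. The WT means are 8.99 in gastrocnemius, 5.08 in diaphragm, 5.04 in heart and 3.89 in liver, and the summed level of *Mtm1*-/y gastrocnemius lies below that of every WT library of this muscle on this scale but not with libraries scaled by their totals alone.

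The clusters were used unevenly as well. Cluster C held 45.0% of Hox CPM in WT gastrocnemius and 48.1% in WT diaphragm, but 1.48% in WT heart and 1.74% in WT liver. Cluster B held 2.59% in WT gastrocnemius, 14.9% in WT diaphragm, 46.4% in WT heart and 68.5% in WT liver. Cluster D held 26.3% in WT gastrocnemius, 9.29% in WT diaphragm, 29.0% in WT heart and 1.96% in WT liver. Cluster A held 23.1% to 27.8% in all of them. In levels, cluster C stood at 96.5 ± 5.75 CPM (SD, n = 4) in WT gastrocnemius, 34.5 ± 7.05 CPM (SD, n = 4) in WT diaphragm and 0.0722 ± 0.0421 CPM (SD, n = 4) in WT heart.

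Per length, *Hoxc10* was the most abundant member in WT gastrocnemius, at 35.9 ± 1.91 RPKM (CPM per kilobase of exon; SD, n = 4). *Hoxc10* encodes a factor of the lumbar region and hindlimb. *Hoxd8* followed at 14.9 ± 2.66 RPKM (SD, n = 4), *Hoxa10* at 6.54 ± 0.389 RPKM (SD, n = 4) and *Hoxd9* at 5.29 ± 1.11 RPKM (SD, n = 4). *Hoxa10* belongs to a group that patterns the upper hindlimb. The SDs of *Hoxa10* and *Hoxd9* overlapped, so that their order is not fixed by these libraries.

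In WT diaphragm the leading members were *Hoxc6* at 5.20 ± 1.43 RPKM (SD, n = 4), *Hoxa5* at 4.39 ± 0.658 RPKM (SD, n = 4), *Hoxc5* at 4.37 ± 0.849 RPKM (SD, n = 4) and *Hoxc4* at 3.17 ± 0.363 RPKM (SD, n = 4). *Hoxa5* and *Hoxc5* are genes of the neck region with known roles in respiratory organs and in the motor neurons of the phrenic nerve. The spreads of *Hoxc6*, *Hoxa5* and *Hoxc5* overlapped, so that their order is not fixed by these libraries. *Hoxb4*, a gene of the neck level, led in WT heart at 0.47 ± 0.17 RPKM (SD, n = 4) and in WT liver at 0.46 ± 0.14 RPKM (SD, n = 3). It was followed by *Hoxd8* at 0.39 ± 0.056 RPKM (SD, n = 4) in the heart and by *Hoxb5* at 0.28 ± 0.14 RPKM (SD, n = 3) in the liver. The SDs of both pairs overlapped, so that *Hoxb4* is not shown to be first in either organ.

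The clearest positional contrast was that of the limb muscle with the trunk muscle. Of the 28 members tested between WT gastrocnemius and WT diaphragm, 12 were higher in the gastrocnemius and 7 were lower by edgeR's quasi-likelihood test, where a call needed an adjusted p below 0.05 and more than a doubling in either direction (1 on the log2 scale). Over all 17725 genes tested, 7.95% were higher and 18.8% were lower. Of the 28, 9 had under 10 counts in at least 1 diaphragm library, and 4 of these had at most 3 counts over the diaphragm group. Such members passed the filter on low counts through the gastrocnemius and could only be higher there, so the counts and the median are descriptions. Of the 16 members with 10 counts in every WT library of both muscles, 3 were higher (*Hoxa7*, *Hoxd8* and *Hoxd9*), 5 were lower and 8 had no call. All 9 tested members of groups 9 to 13 were higher, 3 of the 4 tested members of groups 7 and 8 were higher (*Hoxa7*, *Hoxc8* and *Hoxd8*), and none of the 7 that were lower belonged to groups 7 to 13. The median log2 fold change of the 28 was 0.52, with members at 0 in the diaphragm set at their lower bound, against -0.07 over all genes tested.

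*Hoxc10* (ENSMUSG00000022484) stood at 64.0, 69.6, 67.8 and 72.8 CPM in WT gastrocnemius libraries 1 to 4 and at 0.053, 0.042, 0.028 and 0 CPM in WT diaphragm libraries 1 to 4. The groups were far apart, and the diaphragm libraries held 2 counts at most. Its log2 fold change was 10.97 ± 0.28 (SE; adjusted p = 3.94e-09, edgeR quasi-likelihood test).

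*Hoxa10* (ENSMUSG00000000938) stood at 21.9, 22.2, 19.5 and 21.9 CPM in WT gastrocnemius and at no more than 0.056 CPM in any WT diaphragm library. Its log2 fold change was 9.29 ± 0.30 (SE; adjusted p = 1.09e-07, edgeR). *Hoxa9* (ENSMUSG00000038227) stood at 8.31, 8.99, 9.89 and 10.0 CPM in WT gastrocnemius and reached at most 0.106 CPM in WT diaphragm. It differed by 7.86 ± 0.50 (SE; adjusted p = 8.93e-07, edgeR) on the log2 scale. Both genes were thus present in every limb muscle library and at a few counts or none in the diaphragm.

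*Hoxa11* (ENSMUSG00000038210), *Hoxa13* (ENSMUSG00000038203) and *Hoxc11* (ENSMUSG00000001656), genes of the groups that pattern the lower leg and foot, had no count in any WT diaphragm library. *Hoxc11* stood at 7.83, 11.2, 10.6 and 8.85 CPM in WT gastrocnemius and was at least 511-fold higher there, against the limit of 3 counts over the diaphragm group. *Hoxa11* stood at 7.04, 8.99, 3.44 and 7.63 CPM and was at least 357-fold higher. *Hoxa13* stood at 4.26, 5.32, 1.10 and 4.41 CPM and was at least 198-fold higher. WT gastrocnemius library 3 was the lowest of its group for *Hoxa11* and *Hoxa13* but not for *Hoxa9*, *Hoxc10* or *Hoxc11*. *Hoxc9* (ENSMUSG00000036139) had 1 count over the 4 WT diaphragm libraries against 4.53, 5.80, 4.73 and 5.53 CPM in WT gastrocnemius, a ratio of 820 with a 95% counting interval of 147 to 32426.

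Members of cluster D were present in both muscles and differed by less. *Hoxd8* (ENSMUSG00000027102) stood at 31.6, 42.2, 49.4 and 40.1 CPM in WT gastrocnemius and at 4.28, 4.43, 3.79 and 6.07 CPM in WT diaphragm, a difference of 3.17 ± 0.19 on the log2 scale (SE; edgeR adjusted p = 7.1e-08). *Hoxd9* (ENSMUSG00000043342) stood at 8.64, 11.2, 14.4 and 11 CPM and at 1.03, 0.769, 1.14 and 1.31 CPM, a difference of 3.44 ± 0.22 on the log2 scale (SE; edgeR adjusted p = 1.26e-07). The groups did not overlap for either gene, but in the diaphragm both were at levels of many counts per library.

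The members that were lower in the limb muscle had low paralogue numbers and were present in both muscles. *Hoxc5* (ENSMUSG00000022485) stood at 2.66, 1.96, 1.82 and 2.70 CPM in WT gastrocnemius and at 12.7, 15.5, 15.6 and 10.1 CPM in WT diaphragm, a difference of -2.53 ± 0.26 on the log2 scale (SE; edgeR adjusted p = 5.3e-06). *Hoxa5* (ENSMUSG00000038253) stood at 1.69, 1.68, 1.69 and 1.72 CPM in WT gastrocnemius and at 7.61, 8.51, 7.0 and 9.84 CPM in WT diaphragm, a difference of -2.25 ± 0.28 on the log2 scale (SE; edgeR adjusted p = 2.35e-05). *Hoxa5* and *Hoxc5*, paralogues of each other, were separated between the muscles in every library and in the same direction. *Hoxc5* and *Hoxc10* share 166 bases of exon, and reads in that stretch were dropped from both.

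*Hoxb4* (ENSMUSG00000038692) stood at 1.15, 1.36, 0.746 and 0.560 CPM in WT gastrocnemius and at 4.09, 4.03, 4.27 and 5.87 CPM in WT diaphragm, a difference of -2.23 ± 0.31 on the log2 scale (SE; edgeR adjusted p = 5.26e-05). *Hoxc6* (-1.92 ± 0.26, SE; adjusted p = 3.87e-05) and *Hoxb2* (-2.59 ± 0.38, SE; adjusted p = 7.57e-05) were lower by the same edgeR test. The members with no call belonged to groups 2 to 7, and *Hoxc4* (-0.34 ± 0.23, SE), *Hoxa4* (-0.42 ± 0.31, SE), *Hoxa6* (0.24 ± 0.33, SE) and *Hoxd4* (0.36 ± 0.32, SE) were among them. *Hoxd4* shares 52.3% of its exon length with other genes of the same strand, whose shared reads the counting dropped, so that its value is uncertain.

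**Figure D3:**
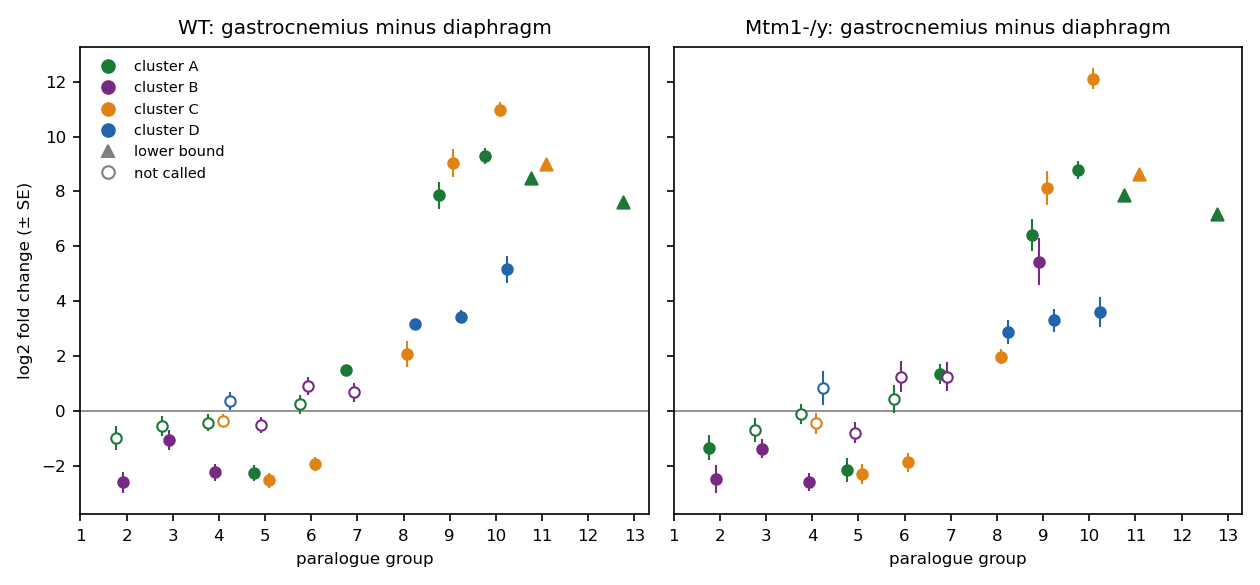
Log2 fold change of gastrocnemius over diaphragm (y axis, bars give the SE) against paralogue number (x axis) for tested Hox genes in WT and in *Mtm1*-/y libraries, coloured by cluster, with triangles at the lower bound for members with no count in the diaphragm and open points for members with no call. In both panels the members shown of groups 2 and 3 are below 0 and members of groups 7 to 13 are above 0.

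Fold changes were larger at higher paralogue numbers. Across the 28 members, Spearman's rho between the log2 fold change and the paralogue number was 0.879 in WT, and within clusters it was 0.900 over 11 members of A, 0.886 over 6 of B, 0.893 over 7 of C and 1.00 over 4 of D. These members share the same libraries and neighbouring genes share control regions, so rho is a description and no test was run on it. Members tested through the gastrocnemius alone lie in the high groups and could only have high fold changes. Over the 16 members with 10 counts in every WT library of both muscles, which reach group 9, rho was 0.560. In *Mtm1*-/y libraries rho was 0.884 over 29 members and 0.634 over the 17 with such counts.

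The *Mtm1*-/y muscles gave the same kind of contrast. Of 29 members tested, 13 were higher in the gastrocnemius, against 5.28% of all 17576 genes, and 8 were lower, against 12.2% of all genes. Of the 29, 9 had under 10 counts in at least 1 diaphragm library, and 6 had at most 3 counts over that group. Such members could only be higher in the gastrocnemius, so these counts are descriptions. Of the 17 members with 10 counts in every *Mtm1*-/y library of both muscles, 4 were higher, 6 were lower and 7 had no call. *Hoxb9* (adjusted p = 0.0026) was called higher and *Hoxa2* (-1.33 ± 0.44, SE; adjusted p = 0.0364) lower by edgeR in addition to the members called in WT. In WT *Hoxb9* was not tested, at a mean of 0.399 CPM in gastrocnemius and 0.0655 CPM in diaphragm. *Hoxa2* was tested there without a call, at 0.572 and 1.15 CPM. For both genes the WT muscles did not overlap. *Hoxb9* had 1 count over the *Mtm1*-/y diaphragm group, a ratio of 65.7 with a 95% counting interval of 11.4 to 2632. *Hoxc10* stood at 55.3, 57.0, 44.4 and 48.8 CPM in *Mtm1*-/y gastrocnemius and at 0, 0 and 0.021 CPM in *Mtm1*-/y diaphragm libraries 1, 2 and 4. *Hoxa5* reached 8.50, 6.42 and 9.67 CPM in *Mtm1*-/y diaphragm, which overlapped the WT range. Without *Mtm1*-/y gastrocnemius library 3, 12 members were higher and 7 lower.

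Other cell types also differed between the muscles, and in WT 7.95% of all genes were higher in the gastrocnemius and 18.8% lower. In WT, 8 of 8 mesothelial markers were lower in the gastrocnemius, with a sum of 0.719 to 1.45 CPM there and 191 to 393 CPM in the diaphragm. White adipocyte markers (8 of 8 lower, 224 to 345 against 607 to 2599 CPM) and macrophage markers (7 of 8 lower, 44.3 to 80.7 against 168 to 344 CPM) moved the same way. Hepatocyte markers summed to 419 to 34212 CPM in WT diaphragm and to at most 116 CPM in any gastrocnemius library, while the skeletal muscle markers summed to 194546 to 233528 CPM in WT gastrocnemius and 49240 to 76935 CPM in WT diaphragm. Tenocyte and cartilage markers went the other way, with 5 of 8 higher in the gastrocnemius, at 181 to 969 CPM against 72.1 to 228 CPM. The part of these differences in the Hox values was not tested. The 12 and 7 calls were unchanged in number when 3033 liver-enriched genes were left out of the scaling and the test.

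Against the heart and the liver, members could be compared in little more than 1 direction. Of the 28 tested, 11 had at most 3 counts over the WT heart group and 18 over the WT liver group, and 25 had under 10 counts in at least 1 library of each. They passed the filter on low counts through the muscles, so that the counts of calls are descriptions. Between WT gastrocnemius and WT heart, 24 of 28 members were higher (14.3% of all genes) and 0 lower (17.7% of all genes). *Hoxb2*, *Hoxb3* and *Hoxb4* were among the members with no call. *Hoxb4* stood at 0.852, 0.814, 1.48 and 1.69 CPM in WT heart, which overlapped the range of WT gastrocnemius. Of the 3 members with 10 counts in every library of WT gastrocnemius and WT heart, *Hoxd8* was higher in the muscle and *Hoxb3* and *Hoxb4* had no call. *Hoxc10* had no count in any heart library and was at least 3229-fold higher in WT gastrocnemius, *Hoxa10* at least 1009-fold and *Hoxc11* at least 450-fold. Between WT gastrocnemius and WT liver, 23 members were higher (31.0% of all genes) and 0 lower (25.7% of all genes).

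Between WT diaphragm and WT heart, 23 members were higher (18.2% of all genes) and 0 lower (8.83% of all genes). Between WT diaphragm and WT liver, 20 were higher (30.6% of all genes) and 0 lower (19.4% of all genes). *Hoxc5*, among the leading members of the diaphragm, had 3 counts over the WT heart group and 2 over the WT liver group, against 2181 over the WT diaphragm group. Its level was 641 times that of the heart, with a 95% counting interval of 219 to 3111, and 515 times that of the liver, with an interval of 142 to 4251. *Hoxc6*, its neighbour in cluster C, had 3 counts over the heart group and a ratio of 597 with an interval of 204 to 2897. *Hoxc4* differed from the heart by 7.99 ± 0.40 on the log2 scale (SE), on 4 counts over the heart group. *Hoxa9*, *Hoxa10* and *Hoxc10* were also called between the diaphragm and the heart, but on at most 4, 2 and 2 counts per diaphragm library against none in the heart.

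The *Mtm1*-/y libraries gave similar counts of calls. Among 29 members, 26 were higher in gastrocnemius than in heart (15.2% of all genes) and 24 higher than in liver (31.1% of all genes), while 0 were lower in either (13.6% and 24.1% of all genes). Without *Mtm1*-/y gastrocnemius library 3 these counts were 24 and 23 higher and 0 lower. In the diaphragm, 21 were higher than in heart (16.6% of all genes) and 22 higher than in liver (30.3% of all genes), with 0 lower (7.56% and 20.9% of all genes).

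Most members called between the heart and the liver lay in cluster D. In WT, 5 of 28 members were higher in the heart (30.6% of all genes) and 1 was lower (22.2% of all genes). Of the 28, 11 had at most 3 counts over each of these groups and could hardly be called, so the share is not compared with that of all genes. All 4 tested members of cluster D were among the 5. *Hoxd8* stood at 1.04, 0.923, 1.28 and 1.02 CPM in WT heart, while WT liver had 0.0729 ± 0.0628 CPM (SD, n = 3), a difference of 3.97 ± 0.41 on the log2 scale (SE; edgeR adjusted p = 7.33e-07). *Hoxd9* (adjusted p = 0.000131, edgeR) had 6 to 9 counts per heart library and 1 over the liver group, a ratio of 15.5 with a 95% counting interval of 2.57 to 634. *Hoxd4* (adjusted p = 0.00443, edgeR), *Hoxa7* (adjusted p = 0.0118) and *Hoxd10* (adjusted p = 0.0447) were called on at most 8, 3 and 6 counts per heart library, and the call of *Hoxd10* was lost with no filter on low counts and without any 1 of the 3 WT liver libraries.

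*Hoxb5*, a neck-level gene of cluster B, was the member lower in the heart. It stood at 0.216 ± 0.0664 CPM (SD, n = 4) in WT heart and 0.784 ± 0.378 CPM (SD, n = 3) in WT liver, a difference of -1.77 ± 0.34 on the log2 scale (SE; edgeR adjusted p = 0.000246). In *Mtm1*-/y libraries 5 of 29 members were higher in the heart (29.4% of all genes) and 2 were lower (23.2% of all genes). The 5 were again *Hoxa7*, *Hoxd4*, *Hoxd8*, *Hoxd9* and *Hoxd10*, and *Hoxb5* was again lower (-1.35 ± 0.40, SE; adjusted p = 0.00727, edgeR). The other lower member, *Hoxc5*, rested on 0 to 3 counts per liver library and none in the heart.

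The genotype was the second question. No member was called between *Mtm1*-/y and WT in any tissue by edgeR or by DESeq2. Of 28 members tested in the gastrocnemius, 0 were called (6.63% of all 15456 genes), and 4 had an unadjusted p under 0.05. Of 20 tested in the diaphragm, 0 were called (0.0119% of all genes) and 2 had an unadjusted p under 0.05. Of 5 tested in the heart (0.00656% of all genes called) and 5 in the liver (0% of all genes called), 0 were called and 0 had an unadjusted p under 0.05.

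In the gastrocnemius 3 members passed the adjusted p without the fold change threshold, all of them lower in *Mtm1*-/y mice. This is 3 of 28 members against 14.9% of all genes lower by that rule, and 0 members were higher against 14.1% of all genes. *Hoxc10*, which stood at 64.0 to 72.8 CPM in WT, stood at 55.3, 57.0, 44.4 and 48.8 CPM in *Mtm1*-/y libraries. The groups did not overlap, and the log2 fold change was -0.40 ± 0.08 (SE; adjusted p = 0.00616, edgeR).

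*Hoxd8* stood at 18.3, 15.3, 28.3 and 25.6 CPM in *Mtm1*-/y gastrocnemius, below the lowest WT library at 31.6 CPM, with a difference of -0.88 ± 0.20 on the log2 scale (SE; edgeR adjusted p = 0.00954). *Hoxd9* stood at 5.53, 5.05, 8.02 and 8.69 CPM, with a difference of -0.71 ± 0.21 on the log2 scale (SE; edgeR adjusted p = 0.0288). The highest *Mtm1*-/y library lay just above the lowest WT library at 8.64 CPM, so that the *Hoxd9* groups overlapped. *Hoxd10* stood at 2.03, 1.84, 2.89 and 2.91 CPM against 2.96, 4.20, 4.22 and 3.26 CPM in WT, without overlap. Its adjusted p was 0.0616 by edgeR, 0.0414 by DESeq2 and 0.0465 by edgeR without *Mtm1*-/y library 3. With libraries scaled by their totals alone, *Hoxd10* differed by -0.24 on the log2 scale (adjusted p = 0.355, edgeR), and its groups overlapped.

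**Figure D4:**
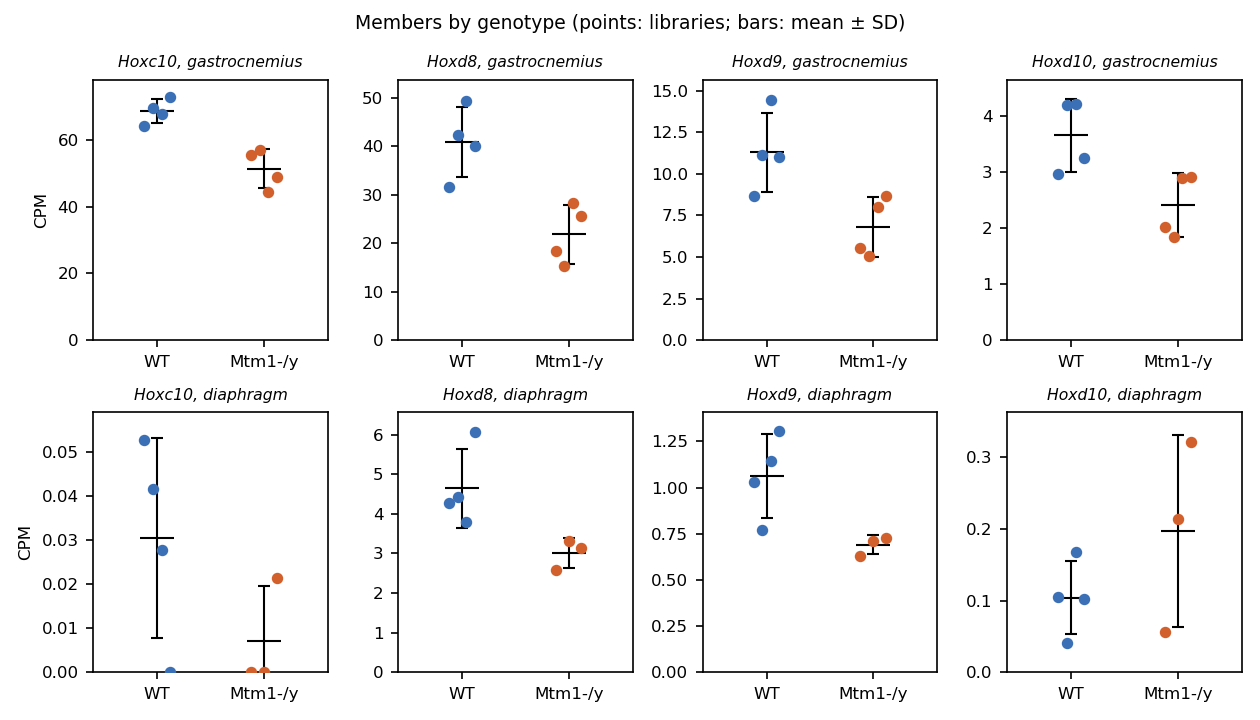
Level in CPM (y axis, each panel with its own scale) of *Hoxc10*, *Hoxd8*, *Hoxd9* and *Hoxd10* in the gastrocnemius and diaphragm, 1 point per library, with the mean and SD of WT and *Mtm1*-/y libraries. In the gastrocnemius *Hoxc10*, *Hoxd8* and *Hoxd10* do not overlap between genotypes and *Hoxd9* overlaps by 1 library.

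Groups without overlap were counted for all genes as well. In the gastrocnemius 3 members were lower without overlap (*Hoxc10*, *Hoxd8* and *Hoxd10*; 16.8% of all genes) and 0 higher (13.8% of all genes). In the diaphragm 2 members were lower without overlap (*Hoxd8* and *Hoxd9*; 5.53% of all genes) and 0 higher (4.41% of all genes). In the gastrocnemius the share of members was near that of all genes for the lower direction. Without *Mtm1*-/y library 3 the same 3 members were lower without overlap (19.4% of all genes). With libraries scaled by their totals alone, 0 members were lower without overlap (3.76% of all genes) and 4 were higher, *Hoxa5*, *Hoxa7*, *Hoxa9* and *Hoxc9* (44.1% of all genes).

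The cluster D sum ran from 44.5 to 69.0 CPM in WT gastrocnemius and from 23.2 to 40 CPM in that of *Mtm1*-/y mice, without overlap. Its mean was 56.8 ± 10.1 CPM (SD, n = 4) against 31.9 ± 8.30 CPM (SD, n = 4). Most of it was *Hoxd8*, with a WT mean of 40.8 against 21.9 CPM, and *Hoxd9*, with 11.3 against 6.82 CPM. *Hoxd10* (3.66 against 2.42) and *Hoxd4* (0.904 against 0.685) also had lower means. *Hoxd3* (0.0577 against 0.0598) and *Hoxd11* (0.0263 against 0.0538), at few counts, did not. The sum thus mainly repeats *Hoxd8* and *Hoxd9* and does not show a fall of the whole cluster. Cluster A, at 55.9 ± 4.49 CPM and 54.1 ± 4.85 CPM (SD, n = 4 each), lay within its spread. Both sums depend on the scaling. In CPM by library totals alone, cluster D summed to 38.2 to 58.3 in WT and 23.9 to 43.1 in *Mtm1*-/y gastrocnemius, which overlap, while cluster A summed to 42.0 to 47.8 and 51.7 to 60.6, without overlap. Without *Mtm1*-/y library 3 cluster D stood at 29.2 ± 7.72 CPM (SD, n = 3). The position index, 8.95 ± 0.12 (SD, n = 4) in *Mtm1*-/y gastrocnemius, and the share of groups 9 to 13, 69.9 ± 2.60% (SD, n = 4), overlapped the WT values. Without library 3 they were 8.91 ± 0.12 and 70.4 ± 2.95% (SD, n = 3), and neither depends on the scaling. *Hoxa9* stood at 9.45, 10.8, 9.48 and 12.6 CPM and *Hoxc11* at 9.84, 8.01, 10.0 and 9.39 CPM in *Mtm1*-/y gastrocnemius, and both overlapped their WT range.

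The fall of these members in *Mtm1*-/y gastrocnemius was relative to other genes. With libraries scaled by their totals alone, the median of all genes was 0.35 higher on the log2 scale in *Mtm1*-/y, *Hoxc10* stood at -0.07 (adjusted p = 0.487), *Hoxd8* at -0.54 (adjusted p = 0.0469) and *Hoxd9* at -0.38 (adjusted p = 0.158) by edgeR. Relative to that median the differences were -0.42, -0.89 and -0.73. With all 30 libraries in 1 fit, *Hoxc10* (adjusted p = 0.101) and *Hoxd9* (adjusted p = 0.0576) missed an adjusted p of 0.05 by edgeR, and *Hoxd8* did not (adjusted p = 0.0243). Without *Mtm1*-/y gastrocnemius library 3, *Hoxd8* reached -1.03 (adjusted p = 0.00458) and was called, *Hoxc10* stood at -0.33 (adjusted p = 0.0126) and *Hoxd9* at -0.79 (adjusted p = 0.0263) by edgeR. *Hoxd9* missed an adjusted p of 0.05 without WT library 2 (0.0628), 3 (0.076) or 4 (0.0539) and without *Mtm1*-/y library 1 (0.0741) or 2 (0.062).

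Cell type markers moved with the genotype in the same muscle, where 4.84% of all genes were called higher and 1.79% lower in *Mtm1*-/y. Macrophage markers were higher in *Mtm1*-/y gastrocnemius for 6 of 8 genes, at a sum of 105 to 130 CPM against 44.3 to 80.7 CPM in WT. White adipocyte markers were higher for 5 of 8 genes, at 351 to 525 CPM against 224 to 345 CPM. Satellite cell markers were lower for 3 of 8 genes, at 65.5 to 86.8 CPM against 80.3 to 88.9 CPM, *Pax7* among them. Mesothelial markers summed to 4.27 to 12.7 CPM against 0.719 to 1.45 CPM. Skeletal muscle markers summed to 125702 to 135107 CPM against 194546 to 233528 CPM, with 1 of 8 genes higher and 1 lower. Cardiac muscle markers summed to 1075 to 3048 CPM against 7048 to 8560 CPM, with 1 of 5 tested genes higher and 1 lower. Both sums thus do not stand for all genes of their lists. Endothelial markers, with 0 of 8 genes called, summed to 378 to 473 CPM against 517 to 646 CPM. The part of these shifts in the values of *Hoxc10*, *Hoxd8* and *Hoxd9* was not tested.

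In the other tissues no member passed the test. Of *Hoxc10*, *Hoxd8*, *Hoxd9* and *Hoxd10*, only *Hoxd8* and *Hoxd9* were tested in the diaphragm and only *Hoxd8* in the heart. *Hoxd10* averaged 0.197 CPM in *Mtm1*-/y and 0.104 CPM in WT diaphragm. These means rest on 3, 6 and 15 counts against 4, 2, 6 and 4, which overlap, so they give no direction. *Hoxc10* had at most 2 counts per library of the diaphragm and none in the heart. *Hoxd8* stood at 2.58, 3.32 and 3.13 CPM in *Mtm1*-/y diaphragm, all below the lowest WT library at 3.79 CPM, with a difference of -0.60 ± 0.21 on the log2 scale (SE; edgeR adjusted p = 0.382). *Hoxd9* stood at 0.631, 0.714 and 0.729 CPM there, below the lowest WT library at 0.769 CPM (-0.60 ± 0.24, SE; adjusted p = 0.45, edgeR). *Hoxd4* differed by -0.88 ± 0.39 (SE; adjusted p = 0.481, edgeR). In the heart *Hoxd8* stood at 0.367, 1.05, 0.415 and 0.968 CPM, which overlapped WT (-0.62 ± 0.35, SE; adjusted p = 0.555, edgeR).

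*Hoxb3* and *Hoxb4* in the heart, at -0.46 and -0.08 on the log2 scale, and *Hoxb5*, *Hoxa5* and *Hoxb3* in the liver, at -0.27, 0.31 and -0.23, had no call, and their signs turned when single libraries were left out. The summed Hox level was 67.5 ± 3.86 CPM (SD, n = 3) in *Mtm1*-/y diaphragm, 5.04 ± 2.33 CPM (SD, n = 4) in *Mtm1*-/y heart and 4.51 ± 0.766 CPM (SD, n = 4) in *Mtm1*-/y liver, each overlapping WT. It was 172 ± 6.55 CPM (SD, n = 4) in *Mtm1*-/y gastrocnemius, where every library lay below the lowest WT library. This was so under TMM scaling and not by library totals alone, the only scalings tried for this sum. In CPM by library totals alone, the sums were 172 to 187 in *Mtm1*-/y and 167 to 186 in WT gastrocnemius. Without *Mtm1*-/y library 3 the TMM-scaled level was 172 ± 7.91 CPM (SD, n = 3).

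**Figure D5:**
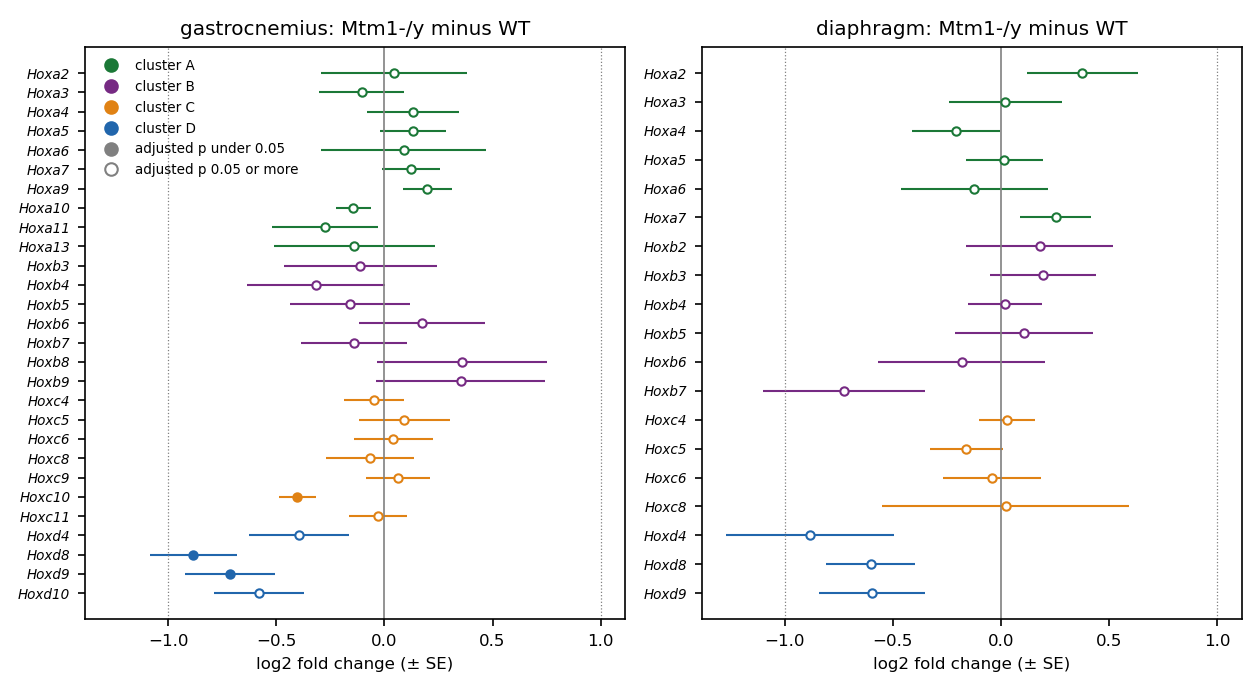
Log2 fold change of *Mtm1*-/y over WT (x axis, bars give the SE) for Hox genes tested in the gastrocnemius (left) and the diaphragm (right), coloured by cluster, with dotted lines at 1 and -1. Filled points mark an adjusted p under 0.05 by edgeR, which *Hoxc10*, *Hoxd8* and *Hoxd9* reach in the gastrocnemius, and the tested members of cluster D lie below 0 in both muscles.

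The difference of the genotype effect between tissues was tested directly. No member was called for gastrocnemius against diaphragm (0.234% of all genes called), gastrocnemius against heart (7.73%) or diaphragm against heart (0.00573%) by edgeR or DESeq2, and 2, 2 and 1 members had an unadjusted p under 0.05 by edgeR. The fall of *Hoxd8* in the gastrocnemius was thus not shown to differ from its value in the diaphragm or the heart.

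Genes that act with the Hox genes were read in the same fits. Hox proteins bind DNA together with the cofactors of the Pbx and Meis families. Of 9 cofactor genes tested between WT gastrocnemius and WT diaphragm, 0 were higher and 2 were lower, where 7.95% of all genes were higher and 18.8% lower. In WT gastrocnemius *Meis2* had 0.766 ± 0.0309 CPM (SD, n = 4), and in WT diaphragm it had 16 ± 2.94 CPM (SD, n = 4), a difference of -4.34 ± 0.18 on the log2 scale (SE; edgeR adjusted p = 4.69e-09). *Meis1* stood at 3.72 ± 1.05 CPM (SD, n = 4) and 8.31 ± 0.697 CPM (SD, n = 4), a difference of -1.13 ± 0.19 on the log2 scale (SE; edgeR adjusted p = 0.000194). In WT heart, where Hox RNA was scarce, *Meis1* stood at 25.8 ± 3.27 CPM and *Meis2* at 21 ± 3.91 CPM (SD, n = 4 each).

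Noncoding genes within the clusters also differed between the muscles. Of 5 tested of 12 in the data, 3 were higher in WT gastrocnemius and 1 was lower. Over all genes tested, 7.95% were higher and 18.8% lower. Genes without a count in the diaphragm passed the filter on low counts through the gastrocnemius and could only be higher there. The counts of calls are thus descriptions. *Hotair*, a noncoding RNA between *Hoxc11* and *Hoxc12*, reached a mean of 2.08 ± 0.55 CPM (SD, n = 4) in WT gastrocnemius, while *Hoxa11os*, antisense to *Hoxa11*, reached 3.01 ± 1.05 CPM (SD, n = 4), and both had no count in any diaphragm, heart or liver library. *Hoxd3os1* was higher by 2.81 ± 0.36 (SE; adjusted p = 2.78e-05, edgeR), while *Hoxb3os* was lower by -2.47 ± 0.29 (SE; adjusted p = 1.39e-05, edgeR). *Hoxa11* and *Hoxa11os* lie on opposite strands, and the strand setting of the counting was not stated. In the deposited counts, 248 genes lying wholly within exons of the opposite strand had counts. Of 765 genes wholly within exons of the same strand, 0 were present.

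Genes of the complexes that keep Hox genes on or off and of other position factors were counted in the same contrast, with the same shares of all genes. Of 8 genes of the Trithorax and Menin complexes, 0 were called either way between the WT muscles. Of 16 genes of the Polycomb complexes, 0 were higher and 2 were lower, with *Cbx2* at -1.40. Of 18 tested limb and axial position factors, 3 were higher in the gastrocnemius, namely *Six2* (3.52), *Lbx1* (2.64) and the hindlimb factor *Tbx4* (1.65). The 4 that were lower were *Tcf21* (-7.14), *Shox2* (-3.54), *Hand2* (-3.33) and *Tbx18* (-1.04). Each value is a log2 fold change past the edgeR threshold. *Tcf21* had no count in any WT gastrocnemius library, so its value is not a ratio of measured levels. The Cdx genes, regulators of Hox genes in the embryo, were represented by *Cdx4* alone, which had at most 3 counts over any muscle group and was not tested, and the other two were not analysed here.

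Between genotypes in the gastrocnemius, no cofactor, noncoding cluster gene or Trithorax gene was called, where 6.63% of all genes were called in either direction. Among Polycomb genes *Cbx2* was higher in *Mtm1*-/y (1.16), and among position factors *Prrx2* (1.38) and *Meox1* (1.02) were higher and *Six2* (-1.30) lower, as log2 fold changes past the edgeR threshold.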

How the data were processed

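The deposited values are raw counts per gene. Per the submitters' processing notes and methods the authors used cutadapt 1.10 for trimming, STAR 2.5.3a for alignment (mm10) and htseq-count 0.6.1p1 in union mode with Ensembl release 96. The kit marks strand, and the strand setting is not given in the sources used here. Of 460 genes whose exons lie wholly within genes of the opposite strand, 249 are in the count table, and of 765 wholly within genes of the same strand, 0 are, so reads shared on 1 strand were left out.

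In R 4.3.3, genes were filtered (filterByExpr, count minimum 10), scaled by TMM and tested with edgeR 4.0.16 (quasi-likelihood, two-sided, Benjamini-Hochberg over all genes tested). The WT libraries of the 4 tissues made 1 fit, the *Mtm1*-/y libraries another, and each tissue another for the genotype. A call needed an adjusted p below 0.05 and a log2 fold change above 1 or below -1. Levels are CPM with 1 TMM scaling over 30 libraries, and RPKM divides by the union of exons. Fold bounds and counting intervals (95%, exact) cover counting error only, with 3 counts over the group as the limit. Promoter windows came from RefSeq (GRCm38.p6). The methods count the samples of each group as mice, and the labels do not say whether tissues share a mouse.

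Alternatives were DESeq2 1.42.0, its size factors, no filter, the adjusted p alone, a replicate block, all 30 libraries, no liver-enriched genes, each library left out in turn, other weights of the position index and, added after seeing the data, library totals alone, the gastrocnemius without *Mtm1*-/y library 3 and members with 10 counts in every library of both groups. The script was tested on simulated counts. Members and lists were chosen with earlier results of these data known. Named with test values are the 4 most abundant members per WT tissue, up to 6 called members per direction and tissue contrast, called members or the 3 with the smallest p per genotype contrast, and up to 4 called members per list. Members with zero counts in a tissue, *Hoxd10* between genotypes, *Hoxc13*, uncalled members between muscles, calls of the *Mtm1*-/y tissues, position factors beyond 4 and the hair follicle list were named after their values were seen. Per list without a call, no gene is named. Results of some genes are not reported here.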

Additional observations from a re-analysis of the deposited data

Results flagged for a closer look

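Within each group of 4 libraries, a value was listed here when 1 library was separated from the rest by a gap above Dixon's 95% limit. Of 116 values tested, 7 met this rule, 6.03% of them, and chance lists about 1 in 20.

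In WT gastrocnemius, library 1 had the lowest summed Hox level, at 195 CPM against 220 to 223 CPM, and the highest *Hoxb6* level, at 1.21 CPM against 0.839 to 0.876 CPM. *Hoxa10* stood at 19.5 CPM in WT gastrocnemius library 3 and at 21.9 to 22.2 CPM in the others. *Hoxb4* stood at 5.87 CPM in WT diaphragm library 4 and at 4.03 to 4.27 CPM in the others.

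In *Mtm1*-/y gastrocnemius, *Hoxa2* stood at 1.02 CPM in library 4 and at 0.394 to 0.467 CPM in the others, and *Hoxc13* at 6.65 CPM in library 3 and at 0 to 0.0656 CPM in the others. The library with *Hoxc13* is the one with hair follicle transcripts, in which *Krt71* stood at 463 CPM and *Tchh* at 677 CPM. *Hoxb4* stood at 1.53 CPM in *Mtm1*-/y liver library 2 and at 0.884 to 0.976 CPM in the others. No cause of these values was tested.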

How the results depend on the processing

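The counts of members called, 38 in all, stayed within 1.5 times their value in all 38 cases with DESeq2's size factors, with no filter on low counts, with all 30 libraries in 1 fit and without liver-enriched genes, and in 37 with DESeq2. Members lower in *Mtm1*-/y heart than in liver were 1 in place of 2 with DESeq2, with the replicate block and with library totals alone, and 1 to 3 without single libraries. Those lower in WT heart than in liver were 1 to 2 without single libraries. With library totals alone, 1 member was lower in WT gastrocnemius than in heart and 1 differed higher in its genotype effect between gastrocnemius and heart. Members lower in *Mtm1*-/y than in WT gastrocnemius were 3 by the adjusted p alone and 0 to 1 without single libraries.

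With plain counts as weights the position index was 8.859 in WT gastrocnemius, 4.922 in *Mtm1*-/y diaphragm and 4.597 in *Mtm1*-/y heart, and the share of groups 9 to 13 was 65.2% in WT gastrocnemius. Unweighted over members with 10 counts, the index was 6.952 in WT and 6.927 in *Mtm1*-/y gastrocnemius, 4.870 in WT diaphragm, 4.292 in WT and 4.237 in *Mtm1*-/y heart. The share was then 35.5% and 36.0% in gastrocnemius, 5.13% and 6.51% in diaphragm, 0% and 0% in heart and 0% in WT liver. The gastrocnemius stayed highest in each version.

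Without single libraries the log2 fold change of genotype ran from -0.342 to 0.132 for *Hoxb4* and -0.698 to 0.071 for *Hoxb3* in the heart, and from -0.042 to 0.528 for *Hoxa5*, -0.441 to 0.153 for *Hoxb3* and -0.506 to 0.157 for *Hoxb5* in the liver. *Hoxb4* turned to 0.032, 0.132, 0.088 and 0.104 without WT heart library 3 or 4 or *Mtm1*-/y heart library 1 or 3. The call of *Hoxd10* between heart and liver was lost with no filter (3.996, adjusted p = 0.0538 by edgeR), with the replicate block (3.944, adjusted p = 0.0572) and without WT liver library 1, 2 or 3 or WT heart library 3 (2.569 to 4.325). The cause was not tested for any of these.

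The labels do not say what a replicate number marks. Correlations of same-numbered deviations ran from -0.160 to 0.233 over the 12 pairs of tissues of one genotype and from -0.578 to 0.404 between genotypes. In 0 of these pairs of groups was every correlation above 0.1, the limit set for pairing, although 3 pairs of WT tissues had them all above 0, and libraries of WT gastrocnemius correlated best with their own number in WT heart in 3 of 4 cases. With the number as a block, 12 members were higher and 7 lower between the WT muscles, and *Hoxd8* fell by 0.906 (adjusted p = 0.00528, edgeR) in *Mtm1*-/y gastrocnemius. Depth limits the heart and the liver most, where 79 to 263 and 104 to 128 counts per library fell on Hox genes.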

Other observations

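*Hoxa11* and *Hoxa13* stood lowest in WT gastrocnemius library 3, at 3.44 and 1.10 CPM, and the antisense gene *Hoxa11os* stood at 1.52 CPM in the same library, the lowest of its group. *Hoxd8* and *Hoxd9* were highest in that library, at 49.4 and 14.4 CPM. The 4 members with no count in WT gastrocnemius were *Hoxb1*, *Hoxc13*, *Hoxd1* and *Hoxd13*, and *Hoxd11* had at most 1 count per WT library, although members of groups 11 and 13 of cluster A were present. *Hoxb8* and *Hoxb9* averaged 0.317 and 0.399 CPM in WT gastrocnemius, below *Hoxc9*, *Hoxd9* and *Hoxa9* in every library.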
